A study of Rattus norvegicus with 22 samples.

Results

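Liver mRNA of 39 complement and coagulation factors was measured in 22 rats, each hybridised to a microarray of its own. The 39 genes were picked by name from the 26276 gene names on the array, and all 39 were found, on 48 of its 30367 probes. Where a gene had more than 1 probe, the brightest was taken. The rats were male Sprague-Dawley animals, 8 weeks old at the start and caged singly, fed a semi-synthetic control diet or the BASE-diet, in which salmon fat (6%) replaced lard and linden extract (8%), pumpkin puree (8%) and probiotic bacteria (1%) were added. The groups were CD 3 (control diet, 3 months, n = 5), BD 3 (BASE-diet, 3 months, n = 5), CD 14 (control diet, 14 months, n = 6) and BD 14 (BASE-diet, 14 months, n = 6). RNA of each liver, labelled with Cy5, was set against 1 common Cy3 reference RNA from healthy rats of 10 weeks, so every value here is a log2 ratio of that rat over the reference, with 0 for equal signal. The question was how these genes differed with diet and with time on it. All rats were 8 weeks old at the start, so time on a diet and age cannot be told apart. In whole liver, fewer cells of a type and less RNA per cell cannot be told apart.

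Complement is a cascade of plasma proteins, most of them secreted by hepatocytes, that marks and lyses microbes. Its classical, lectin and alternative routes meet at the cleavage of C3, and the terminal factors C5 to C9 build the membrane attack complex. Coagulation is a second cascade of liver proteases, in which the vitamin K-dependent zymogens and factors V and XI lead to thrombin, and thrombin turns fibrinogen into fibrin. Fibrinogen, C3 and, in the rat, T-kininogen are acute-phase proteins, whose synthesis in hepatocytes goes up under inflammatory cytokines such as interleukin 6.

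The 250 bases before the gene start are shown for the 5 genes that were highest in the same 4 rats, as described further on: the fibrinogen chains Fga, Fgb and Fgg, complement C3, and the kininogen that the array calls Kng1. They come from RefSeq on build GRCr8, at chr2:170671919-170672168 (plus strand), chr2:170700876-170701125 (minus strand), chr2:170652833-170653082 (plus strand), chr9:2201340-2201589 (minus strand) and chr11:91418220-91418469 (plus strand, gene now named Kng2). They are written 5′ to 3′ along the gene, with capitals for a match to 1 of the motifs searched.
Fga: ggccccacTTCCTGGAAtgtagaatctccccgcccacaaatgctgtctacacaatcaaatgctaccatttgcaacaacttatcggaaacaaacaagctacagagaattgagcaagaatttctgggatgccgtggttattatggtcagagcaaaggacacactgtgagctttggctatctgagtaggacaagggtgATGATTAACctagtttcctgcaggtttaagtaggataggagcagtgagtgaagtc
Fgb: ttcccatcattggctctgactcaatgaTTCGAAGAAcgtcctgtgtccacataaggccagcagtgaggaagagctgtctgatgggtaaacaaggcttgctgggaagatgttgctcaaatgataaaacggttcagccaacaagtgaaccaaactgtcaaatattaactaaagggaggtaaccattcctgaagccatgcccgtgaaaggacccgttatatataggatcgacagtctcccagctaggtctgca
Fgg: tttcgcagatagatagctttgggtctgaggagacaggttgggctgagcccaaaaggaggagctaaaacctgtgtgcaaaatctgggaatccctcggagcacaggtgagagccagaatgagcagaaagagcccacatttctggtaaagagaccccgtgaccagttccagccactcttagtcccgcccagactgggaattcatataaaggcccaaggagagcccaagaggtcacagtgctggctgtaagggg
C3: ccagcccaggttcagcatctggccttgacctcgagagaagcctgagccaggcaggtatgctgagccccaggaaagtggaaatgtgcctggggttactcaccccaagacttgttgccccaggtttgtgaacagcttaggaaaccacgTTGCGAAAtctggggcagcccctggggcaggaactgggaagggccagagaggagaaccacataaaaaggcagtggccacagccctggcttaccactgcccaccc
Kng1: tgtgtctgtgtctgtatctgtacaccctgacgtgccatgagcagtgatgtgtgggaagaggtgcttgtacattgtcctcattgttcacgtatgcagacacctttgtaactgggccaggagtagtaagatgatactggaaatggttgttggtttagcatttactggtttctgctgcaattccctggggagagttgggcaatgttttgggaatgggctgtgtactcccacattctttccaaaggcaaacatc
Short motifs of liver regulators were searched on both strands, namely HNF1 (GTTAATNAT), C/EBP (TTNCGNAA), STAT (TTCNNNGAA) and HNF4 (CAAAGTCCA), with N for any base. Fga held an HNF1 match whose first base lay 55 bases before the start and a STAT match at 242, Fgb a STAT match at 223 and C3 a C/EBP match at 104, whereas Fgg and Kng1 held none. Of the 39 factors, 31 had a promoter in the table, and no 2 matches overlapped in them. HNF1 letters occurred in 5 of the 31 (Fga, C5, C4bpa, F13b and Plg), that is 16.1%, against 0.666% of all 33469 promoters. STAT letters occurred in 7 of the 31 (22.6%, against 7.67% of all), C/EBP letters in 1 (3.23%, against 2.13%) and HNF4 letters in 0 (against 0.338%). A match describes the letters only.

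Between 52.4% and 93.6% of the spots of an array stood well above background in Cy5, and the brightest probe of every one of the 39 factors did so on all 22 arrays. All 9 hepatocyte markers listed were measured as well, and none of the 4 markers of exocrine pancreas passed the filter. The arrays lay on 5 slides, here lettered A to E, which were not balanced over the groups. Slide A held BD 3 rats 3 to 5 and CD 14 rats 1 to 3, slide B held CD 3 rat 1 and BD 3 rats 1 and 2, slide C held all 6 BD 14 rats and CD 14 rats 4 and 5, slide D held CD 3 rats 2 to 4, and slide E held CD 3 rat 5 and CD 14 rat 6. Diets can therefore be compared within a slide only on B at 3 months and on C at 14 months, and times only on E. CD 3 rat 4 was the dimmest array, and it gave the lowest ratio of all 22 rats for 19 of the 39 factors, with CD 3 rat 3 lowest for another 9.

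**Figure D1:**
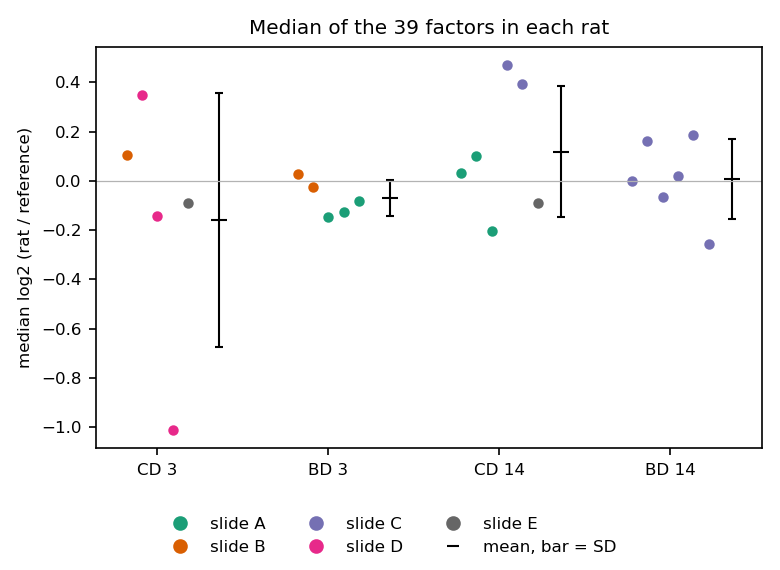
Each point is the median log2 ratio (rat over reference) of the 39 factors in 1 rat, by group and coloured by slide, with the group mean and SD of these medians as a black bar. The CD 3 rats spread from -1.01 to 0.35, and the highest 2 points are the CD 14 rats of slide C at 0.47 and 0.39.

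No factor of the 39 passed the moderated F test over the 4 groups at an adjusted threshold of 0.05 (limma, Benjamini-Hochberg over 19434 probes), where 5 probes of the array (0.0257%) did. The lowest adjusted p of a factor was 0.167. At an unadjusted p of 0.05, 9 of the 39 passed, namely Kng1, Cfi, C4bpa, C5, C9, Mbl2, F7, F9 and Cfd, against 10.5% of all probes. With the ordinary one-way test named in the study's methods 8 passed at that unadjusted level (10.7% of all probes) and 0 after Benjamini-Hochberg. In each single comparison, too, 0 of the 39 passed the adjusted threshold, as did 0% of all probes, so the lists that follow rest on unadjusted p-values and on direction, and every value named is a difference that did not pass the adjusted test.

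The factors leaned upward with time on the control diet. In CD 14 against CD 3, 33 of the 39 were higher, where 53.4% of all probes were, and the median difference was 0.23 against 0.029 over all probes. At an unadjusted p of 0.05, 13 of the 39 passed, against 10.1% of all probes. Of these, 12 were higher (against 6.85% of all probes), and Mbl2 was lower. In no factor were the CD 14 and CD 3 rats without overlap, a pattern that 0.484% of the probes showed. On the BASE-diet, 27 of the 39 were higher in BD 14 than in BD 3 (58.6% of all probes), with a median of 0.098 against 0.072, and 2 passed unadjusted (7.44% of all probes). The median turned in a pair of other settings, as it was -0.018 in the Cy5 channel alone and -0.36 with slide as a term, where 6 of the 39 were higher.

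The count of 13 rested on a few arrays. The number was 5 without CD 3 rat 3 (8.01% of all probes), 7 without CD 14 rat 4 (8.99%) and 8 without CD 14 rat 5 (9.6%). The median difference was 0.091 without CD 3 rat 4, 0.40 without CD 3 rat 1 and 0.48 without CD 3 rat 2. With slide as a term in the fit it was -0.058 and 0 factors passed unadjusted, and on slide E, with 1 rat of each group and no test, it was -0.041. Time and slide cannot be told apart in most of these rats.

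The median diet difference was above 0 at 3 months and below 0 at 14 months. At 3 months, 28 of the 39 factors were higher in BD 3 than in CD 3 (53.6% of all probes), the median was 0.16 against 0.031 over all probes, and 2 passed unadjusted, F9 and Masp2 (7.11% of all probes). This median rested on the dim array, since without CD 3 rat 4 it was -0.073, and on slide B it was -0.091. At 14 months, 30 of the 39 were lower in BD 14 than in CD 14. Those higher were 9 (56.3% of all probes), the median was -0.14 against 0.046, and only Cfi passed unadjusted (4.6% of all probes). In the test of the difference between both diet effects, 8 of the 39 were above 0 (52.4% of all probes), the median was -0.29 against 0.022, and Cfd, F9 and F7 passed unadjusted (4.8% of all probes). Without CD 3 rat 4 this median was -0.091. Since the comparisons share groups, their counts are not independent of one another.

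**Figure D2:**
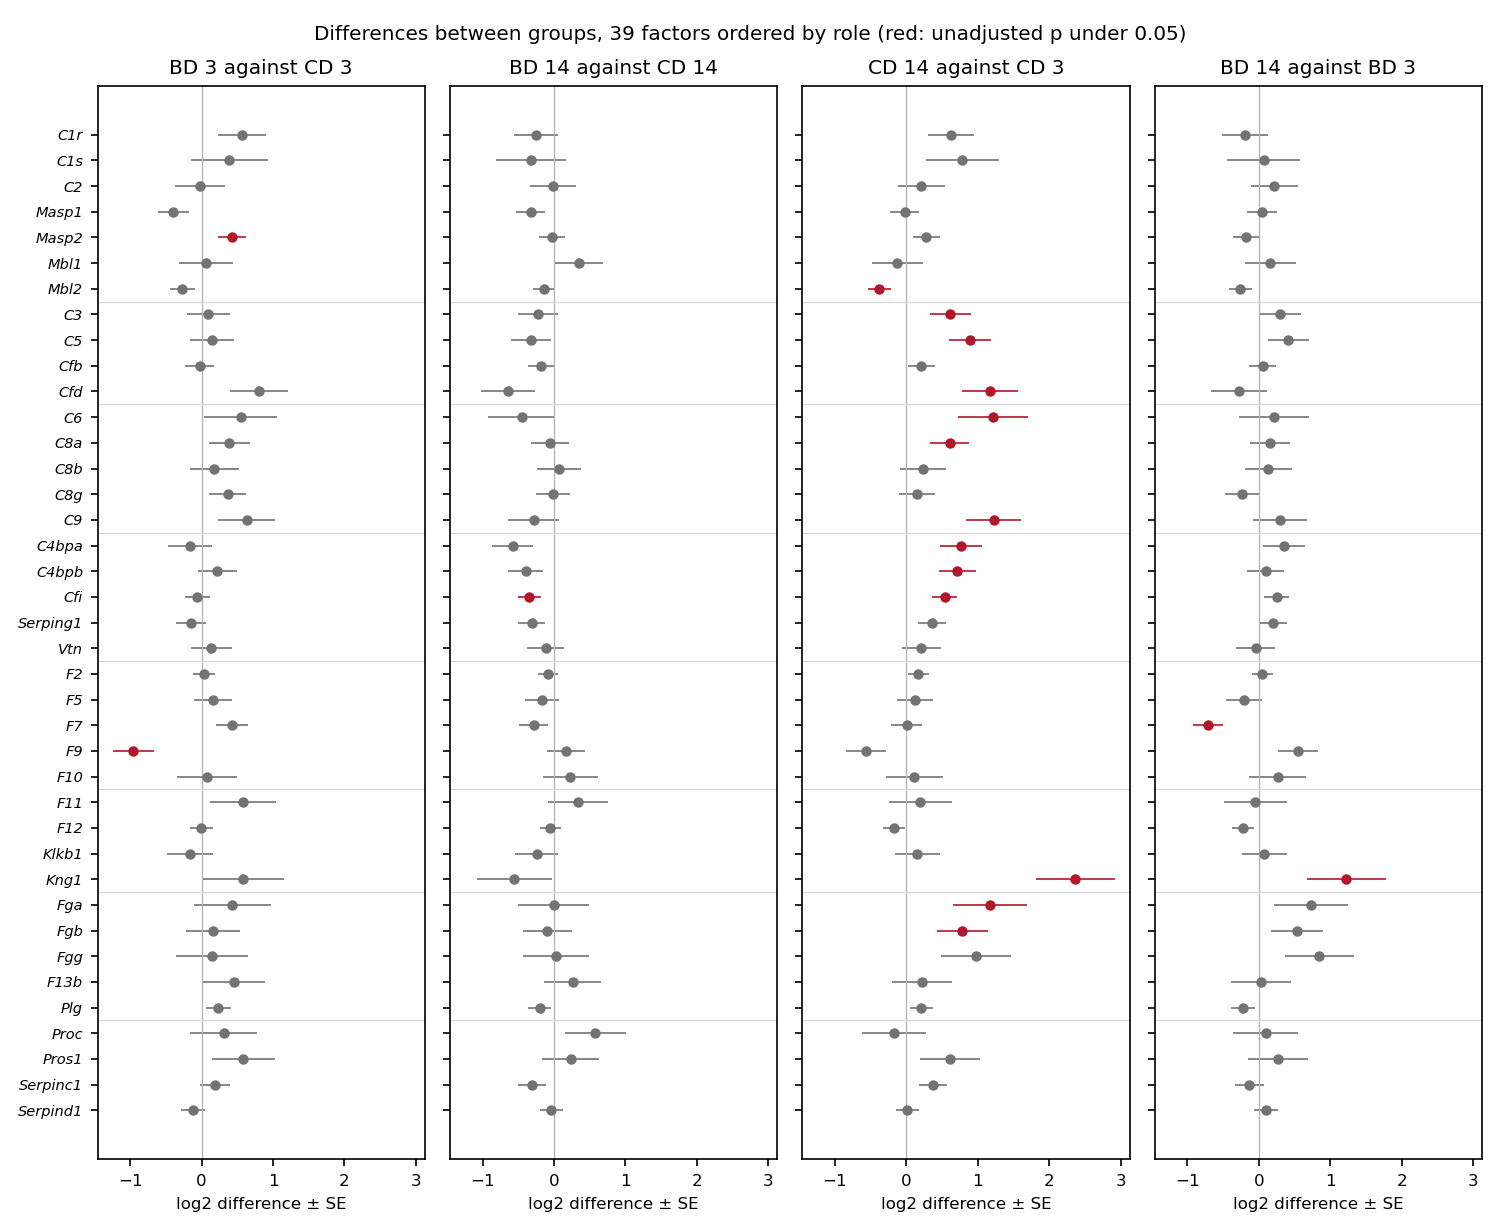
Each point is the log2 difference between 2 groups for 1 factor, with its standard error from limma, in red where the unadjusted p was under 0.05. Genes are ordered by role from the top, with lines between classical and lectin activation, C3, C5 and the alternative pathway, terminal complement, complement regulators, coagulation zymogens and cofactors, the contact system, fibrin and fibrinolysis, and anticoagulants. In CD 14 against CD 3 the 12 higher red points lie between 0.53 and 2.37, and the red point below 0 is Mbl2.

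The genes that start the classical and lectin routes showed no common direction. Of the 7, 4 were higher and 3 lower in CD 14 than in CD 3. Mbl2, a mannose-binding lectin that recognises sugars on microbes, read 0.24, 0.031, 0.55, 0.16 and 0.018 in the CD 3 rats, -0.44, 0.031, 0.090, -0.24 and 0.21 in the BD 3 rats, -0.57 to 0.085 (median -0.17) in CD 14 and -0.54 to -0.099 (median -0.32) in BD 14. All 5 CD 3 rats were thus above 0 and all 6 BD 14 rats below it. These groups differ in both diet and time and were not compared in a fit. How many of all probes show this pattern was not counted. The CD 14 difference was -0.38 ± 0.16 (SE, unadjusted p = 0.0284, limma adjusted p = 0.426), and on slide E it was 0.034.

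C1r and C1s are the paired proteases of the C1 complex, and C1s had the highest residual SD of this class, 0.90. C1r was below the reference in nearly every rat, at -0.70, -1.07, -1.92, -1.63 and -0.44 in CD 3, -0.97 to -0.078 in BD 3, -1.41 to -0.15 in BD 14 and -1.46 to 0.34 in CD 14. It differed by 0.62 ± 0.32 (SE) between CD 14 and CD 3, and C1s by 0.78 ± 0.51. Both turned with slide as a term, to -0.63 and -0.79. Masp2, the lectin-route protease that cuts C4, read 0.19, -0.23, -0.41, -1.18 and -0.18 in CD 3 and 0.21, 0.40, 0.11, -0.31 and -0.089 in BD 3, groups that overlap widely. Its difference was 0.43 ± 0.20 (SE, unadjusted p = 0.0424, limma adjusted p = 0.684), but 0.27 ± 0.26 on its second probe. On the brightest probe it was 0.22 without CD 3 rat 4, 0.067 with slide as a term and -0.026 in the Cy5 channel alone. Masp1, a related protease with several transcripts, had 4 probes that disagreed at 14 months, since the brightest gave -0.33 ± 0.20 between BD 14 and CD 14 and the others 0.074, 0.16 and 1.34. C2, which C1s cuts, and Mbl1, the other mannose-binding lectin, differed by 0.21 ± 0.33 and -0.13 ± 0.36 between CD 14 and CD 3.

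C3, C5 and the proteases of the alternative pathway were higher in CD 14 than in CD 3 in 4 of 4 genes (53.4% of all probes), 3 of them at an unadjusted p of 0.05 (6.85% of all probes). C3, the protein on which all routes converge, was near the reference in the 3-month rats, with -1.01 to 0.49 in CD 3 and -0.23 to 0.35 in BD 3. It ranged from -0.12 to 1.28 (median 0.28) in CD 14 and from -0.081 to 0.82 (median 0.077) in BD 14. The top of both old groups came from a few animals, CD 14 rats 4 and 5 and BD 14 rats 2 and 5. The CD 14 difference was 0.61 ± 0.29 (SE, unadjusted p = 0.0454, limma adjusted p = 0.478), 0.39 without CD 3 rat 4 and 0.31 ± 0.41 with slide as a term.

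C5, whose cleavage starts the attack complex, read 0.081, -0.38, -1.21, -0.67 and 0.040 in CD 3 and -0.45, -0.62, -0.24, 0.31 and -0.40 in BD 3. In CD 14 it ran from -0.37 to 1.23 (median 0.47) and in BD 14 from -0.16 to 0.56 (median 0.034). The groups overlap, and CD 14 exceeded CD 3 by 0.89 ± 0.29 (SE, unadjusted p = 0.00619, limma adjusted p = 0.294). With slide as a term that difference was -0.13. Factor B (Cfb), the zymogen of the alternative C3 convertase, varied little, and its differences lay between -0.18 and 0.21.

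Cfd, or adipsin, is the protease that cuts factor B and is best known as a product of fat cells. It was far below the reference in CD 3 rats 1 to 3, at -1.13, -1.94 and -1.92, but at -0.31 and -0.0060 in rats 4 and 5. The BD 3 rats read -0.11, -0.64, -0.68, 0.45 and -0.28, the CD 14 rats -0.71 to 0.97 (median 0.087) and the BD 14 rats -1.41 to 0.070 (median -0.48). Cfd was thus higher with time on the control diet, by 1.17 ± 0.39 (SE, unadjusted p = 0.00664, limma adjusted p = 0.300), and the diet difference was 0.81 ± 0.41 at 3 months but -0.64 ± 0.37 at 14 months. The test of both diet differences against each other gave -1.45 ± 0.55 (SE, unadjusted p = 0.0153, limma adjusted p = 0.993). In the fit with slide as a term the control-diet difference with time was 0.68 ± 0.52 and this last test gave -2.22 ± 0.65.

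All 5 terminal factors were higher in CD 14 than in CD 3 (53.4% of all probes), 3 of them at an unadjusted p of 0.05 (6.85% of all probes). In the fit with slide as a term 4 of the 5 were below 0. C9, which polymerises into the pore, was low in CD 3 rats 3 and 4, with 0.48, -0.30, -1.61, -1.58 and 0.40 over the group, and read 0.14, -0.89, 0.65, 0.51 and 0.15 in BD 3. All 6 CD 14 rats were above the reference, from 0.22 to 1.32 (median 0.70), and BD 14 ran from -0.41 to 1.24 (median 0.40). CD 14 exceeded CD 3 by 1.22 ± 0.38 (SE, unadjusted p = 0.00413, limma adjusted p = 0.270), but by -0.25 with slide as a term. Its diet difference at 3 months, 0.63 ± 0.40, was 0.36 without CD 3 rat 3 and -0.85 within slide B.

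C6, which joins C5b first, ran from -2.03 to 1.30 in the CD 3 rats and from -0.23 to 1.76 in the CD 14 rats, while the BASE-diet rats covered -0.96 to 1.21 at 3 months and -0.34 to 1.47 at 14 months. The spread within each group was of the same order as the difference of 1.21 ± 0.49 between CD 14 and CD 3 (SE, unadjusted p = 0.0224, limma adjusted p = 0.405), which was -0.30 with slide as a term. C8a, a chain of C8, differed by 0.60 ± 0.28 (unadjusted p = 0.0394), by 0.22 on its second probe, by 0.32 without CD 3 rat 4 and by -0.085 with slide as a term. The other C8 chains, C8b and C8g, differed by 0.23 ± 0.33 and 0.15 ± 0.25.

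The regulators that hold complement in check were also higher in CD 14 than in CD 3 in 5 of 5 genes (53.4% of all probes), 3 of them past the unadjusted level (6.85% of all probes). In the fit with slide as a term 4 of the 5 were below 0, namely C4bpa at -0.10, Cfi at -0.058, Serping1 at -0.13 and Vtn at -0.0015. All 5 were lower in BD 14 than in CD 14, where 56.3% of all probes were higher. Cfi, the protease that inactivates C3b and C4b, read 0.58, 0.63, 0.0027, 0.33 and 0.79 in CD 3 and 0.37, 0.15, 0.42, 0.61 and 0.49 in BD 3. In CD 14 it ran from 0.62 to 1.37 (median 0.91), and in BD 14 from 0.50 to 0.86 (median 0.64). By their means, the CD 14 rats were highest at 1.00, the BD 14 rats next at 0.66, and the 3-month groups lowest at 0.47 and 0.41, with overlap between neighbours. The difference was 0.53 ± 0.17 for CD 14 against CD 3 (SE, unadjusted p = 0.00484, limma adjusted p = 0.279) and -0.34 ± 0.16 for BD 14 against CD 14 (unadjusted p = 0.0459, limma adjusted p = 0.952). The second was -0.70 with slide as a term.

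C4bpa and C4bpb are the chains of C4b-binding protein, the cofactor of Cfi. C4bpa read 0.72, 0.46, -0.0013, 0.52 and 0.77 in CD 3 and 0.17, -0.093, 0.58, 0.57 and 0.42 in BD 3. It ranged from 0.34 to 2.20 (median 0.97) in CD 14 and from 0.41 to 1.51 (median 0.54) in BD 14, where rat 5 stood alone above 0.61. CD 14 rats 4 and 5 were far above all others at 2.17 and 2.20. CD 14 exceeded CD 3 by 0.76 ± 0.30 for C4bpa (SE, unadjusted p = 0.0171, limma adjusted p = 0.382) and by 0.71 ± 0.26 for C4bpb (unadjusted p = 0.0123, limma adjusted p = 0.346), which were -0.10 and 0.33 with slide as a term. BD 14 differed from CD 14 by -0.58 ± 0.28 and -0.40 ± 0.25, respectively. Serping1, the C1 inhibitor, and Vtn, vitronectin, differed by 0.36 ± 0.20 and 0.21 ± 0.27 between CD 14 and CD 3.

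Kininogen gave the widest difference of all factors with time. Kng1, whose probe lies at chr11:80127589-80127648 (build rn4), read 0.58, 1.34, -1.15, -0.93 and 0.54 in CD 3 and 0.78, 0.50, 0.053, 0.99 and 0.98 in BD 3. In CD 14 it reached 0.75 to 4.37 (median 2.13) and in BD 14 1.27 to 3.13 (median 1.46). All 6 BD 14 rats were above all 5 BD 3 rats, while CD 14 and CD 3 overlapped in their lowest and highest rat. At 3 months the control rats averaged 0.076 ± 1.07 and the BASE-diet rats 0.66 ± 0.39 (SD, n = 5 each). At 14 months these means were 2.44 ± 1.32 and 1.89 ± 0.80 (SD, n = 6 each). With time, Kng1 differed by 2.37 ± 0.55 on the control diet, a 5.16-fold difference (SE, unadjusted p = 0.000316, limma adjusted p = 0.177), and by 1.23 ± 0.55, or 2.34-fold, on the BASE-diet (unadjusted p = 0.0370, limma adjusted p = 0.640). These were 1.34 and -1.14 with slide as a term. It was the single factor to pass the adjusted threshold in any fit with 1 array left out, that without CD 3 rat 5. Between BD 14 and BD 3, 2.26% of all probes did not overlap.

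The identity of this probe is uncertain. Its accession belongs to the gene that RefSeq now names Kng2, and rat kininogens are near-identical copies that a probe may not separate. The array's Kng1l1 probe, for the gene now named Kng1, differed by 2.35 ± 0.64 between CD 14 and CD 3 (unadjusted p = 0.00141, limma adjusted p = 0.201), and its Kng2 probe, now Kng2l1, by 0.71 ± 0.24 (unadjusted p = 0.00686, limma adjusted p = 0.302).

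Fibrinogen is built of the chains Fga, Fgb and Fgg. Fga (probe at chr2:174751982-174752041, rn4) read 0.19, 0.18, -0.71, -3.05 and 0.031 in CD 3 and 0.011, -0.10, -0.51, -0.39 and -0.24 in BD 3, with -0.32 to 1.56 (median 0.29) in CD 14 and -0.41 to 1.84 (median 0.10) in BD 14. Fgb lay between -0.82 and 0.42 in CD 3 and -0.26 and -0.080 in BD 3, and reached 1.35 in CD 14 and 2.00 in BD 14. Fgg lay between -2.24 and 1.02 in CD 3 and -0.49 and -0.017 in BD 3, and reached 1.97 in CD 14 and 2.21 in BD 14. In each chain CD 14 and BD 14 overlapped over most of their range. CD 14 against CD 3 gave 1.17 ± 0.52 for Fga (SE, unadjusted p = 0.0340, limma adjusted p = 0.45), 0.78 ± 0.36 for Fgb (unadjusted p = 0.0418, limma adjusted p = 0.473) and 0.97 ± 0.49 for Fgg (unadjusted p = 0.0580). Without CD 3 rat 4 the Fga difference was 0.57, and with slide as a term the 3 chains differed by 0.18, 0.22 and 0.30.

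The highest rats were shared among the chains. In Fga, Fgb, Fgg, C3 and Kng1, the 4 highest ratios of all 22 belonged to CD 14 rats 4 and 5 and BD 14 rats 2 and 5. In Fgg these were 2.21, 1.97, 1.57 and 1.08, and the next ratio was 1.02. In Kng1 they were 4.37, 3.57, 3.13 and 2.67, and the next was 2.35, and in Fgb 2.00, 1.35, 1.07 and 0.87, followed by 0.68. No other set of 4 rats was shared by more than 2 factors. All 4 rats lay on slide C, which held 8 arrays, and 2 came from each diet. This set was seen in the values and was not tested.

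**Figure D3:**
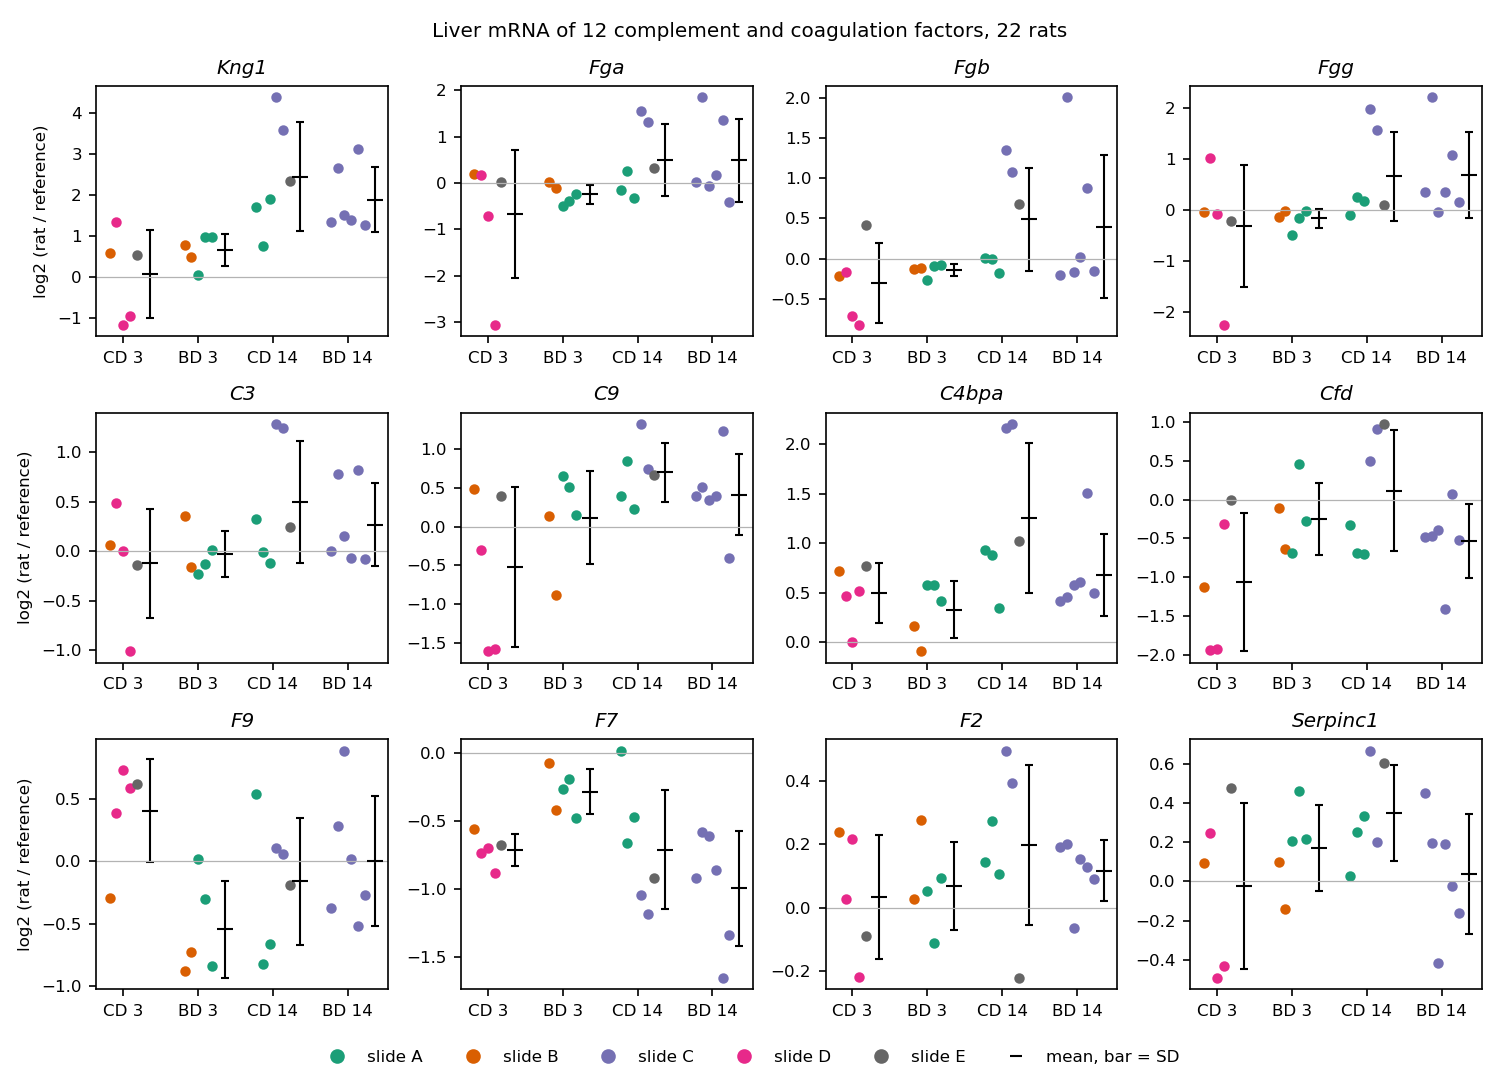
Points give the log2 ratio (rat over reference) of 1 rat for 12 factors, coloured by slide, with the group mean and SD as black bars and a scale of its own in each panel. In Kng1, Fga, Fgb, Fgg and C3 the 4 uppermost points are slide C rats of both diets at 14 months, whereas F2 stays between -0.22 and 0.50.

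Among the 5 clotting zymogens and cofactors 4 were higher in CD 14 than in CD 3 (53.4% of all probes). None of the 5 passed at an unadjusted p of 0.05 (10.1% of all probes). With slide as a term all 5 were below 0, with F2 at -0.031, F5 at -0.62, F7 at -0.0052, F9 at -0.64 and F10 at -0.049. F2, the precursor of thrombin, had the smallest residual SD of all 39 factors, 0.18. Control rats averaged 0.033 ± 0.20 (SD, n = 5) at 3 months and 0.20 ± 0.25 (SD, n = 6) at 14 months, and BASE-diet rats 0.068 ± 0.14 (SD, n = 5) and 0.12 ± 0.097 (SD, n = 6). None of its differences exceeded 0.17, and the 95% interval for CD 14 against CD 3 ran from -0.14 to 0.47. F5 and F10, which form the complex that cuts prothrombin, differed by no more than 0.21 and 0.26 in the diet and time comparisons.

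F9, the zymogen missing in haemophilia B (probe at chrX:145575130-145575189, rn4), was the factor with the widest diet difference at 3 months. It read -0.29, 0.39, 0.74, 0.59 and 0.62 in CD 3 and -0.88, -0.73, 0.018, -0.30 and -0.84 in BD 3, so that 4 of 5 control rats lay above all BASE-diet rats. In CD 14 it ranged from -0.83 to 0.54 (median -0.062) and in BD 14 from -0.52 to 0.89 (median -0.13). The difference was -0.95 ± 0.29 at 3 months, 1.94-fold lower on the BASE-diet (SE, unadjusted p = 0.00382, limma adjusted p = 0.428), and 0.17 ± 0.27 at 14 months. The test between both gave 1.12 ± 0.40 (unadjusted p = 0.0103, limma adjusted p = 0.993). In the Cy5 channel alone, without the reference, the 3-month difference was 0.14 and the test between both -0.31, whereas with slide as a term they were -0.64 ± 0.44 and 0.56 ± 0.57.

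F7, which starts clotting with tissue factor, was the one factor whose rats did not overlap at 3 months. It read -0.56, -0.74, -0.70, -0.89 and -0.68 in CD 3 and -0.078, -0.42, -0.27, -0.19 and -0.48 in BD 3, a pattern that 0.69% of all probes showed. The CD 14 rats ran from -1.19 to 0.016 (median -0.79) and the BD 14 rats from -1.66 to -0.58 (median -0.89), so the BD 14 rats lay below all BD 3 rats (2.26% of all probes did not overlap here). The BASE-diet rats differed by -0.71 ± 0.21 between both times (SE, unadjusted p = 0.00332, limma adjusted p = 0.396), against 0.0018 ± 0.21 in the control rats. At 3 months the diet difference was 0.43 ± 0.22 (unadjusted p = 0.0710), and the test between both diet differences gave -0.71 ± 0.30 (unadjusted p = 0.0289, limma adjusted p = 0.998). No slide held both BD 3 and BD 14 rats, and with slide as a term F7 differed by -0.021 between these groups, by 0.13 between the diets at 3 months, and by -0.015 in the test between both.

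The other factors listed under the contact system varied less than the kininogen probe, whose identity is uncertain. F12, whose activation starts the contact route, had a residual SD of 0.20 and differences between -0.22 and -0.0036. Klkb1, prekallikrein, differed by -0.24 to 0.15, and F11, which F12 activates, by -0.052 to 0.58. F13b, the carrier chain of the enzyme that crosslinks fibrin, averaged 0.25 ± 0.46 in the BD 14 rats and -0.015 ± 0.26 in the CD 14 rats (SD, n = 6 each). Plg, the precursor of plasmin, which dissolves fibrin, differed by -0.22 to 0.23.

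Among the anticoagulants none passed unadjusted in any comparison, where 4.6% to 10.1% of all probes did. In so few genes that is near these shares. Proc, protein C, which inactivates factors V and VIII, read 0.57, 1.39, 0.45, -2.58 and -0.67 in CD 3, so that 1 dim array alone set the lower end. It ranged from -0.85 to 0.078 (median -0.27) in CD 14 and from -0.19 to 0.56 (median 0.24) in BD 14. In the fit without slide, the diet difference of 0.58 ± 0.43 was the highest of any factor at 14 months. With slide as a term it was 0.33, and F13b was highest at 0.46. For Pros1, protein S, the cofactor of protein C, the 14-month difference was 0.24 ± 0.40, and 0.36 with slide as a term. Serpinc1, antithrombin, the main inhibitor of thrombin, averaged 0.35 ± 0.25 in the CD 14 rats and 0.040 ± 0.31 in the BD 14 rats (SD, n = 6 each), a difference of -0.31 ± 0.19 (SE). Serpind1, heparin cofactor II, lay between 0.30 and 0.44 in all 4 group means.

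On slide C, which held 14-month rats of both diets, the BASE-diet rats were lower in most factors. The 6 BD 14 rats set against CD 14 rats 4 and 5 gave a median difference of -0.52 over the 39 factors, against 0.030 over all probes. There 31 of the 39 were lower, where 47.2% of all probes were, and 14 passed at an unadjusted p of 0.05, all of them lower (11.3% of all probes). With slide as a term over all 22 arrays, the estimates for this comparison are the same, and 11 passed unadjusted, again all lower (7.8% of all probes). None passed the adjusted threshold in either fit, and the lowest adjusted p of a factor was 0.269 on slide C and 0.0788 with slide as a term (limma). This rests on 2 control rats, and without CD 14 rat 4 or CD 14 rat 5 the median over all arrays went from -0.14 to -0.067 or -0.064.

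The widest differences there were those of Kng1 and C4bpa. C4bpa was 2.17 and 2.20 in the 2 control rats and 0.41 to 1.51 in the 6 BASE-diet rats, a difference of -1.51 ± 0.30 (SE, unadjusted p = 0.000828, limma adjusted p = 0.269). C4bpb and Cfi differed by -0.98 ± 0.21 and -0.70 ± 0.17, C3 by -0.99 ± 0.30, C5 by -0.99 ± 0.26, Cfb by -0.74 ± 0.20 and Cfd by -1.24 ± 0.35. In Kng1 the control rats read 4.37 and 3.57 and the BASE-diet rats 1.27 to 3.13, a difference of -2.08 ± 0.54. The fibrinogen chains Fga, Fgb and Fgg differed by -0.95 ± 0.58, -0.82 ± 0.58 and -1.08 ± 0.55, none at an unadjusted p of 0.05. The clotting zymogens F5, F7, F9 and F10 differed by -0.18 to 0.12, and F2 by -0.33 ± 0.16. Whether these 2 rats or their slide differ from the other 4 CD 14 rats, on slides A and E, cannot be told apart.

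**Figure D4:**
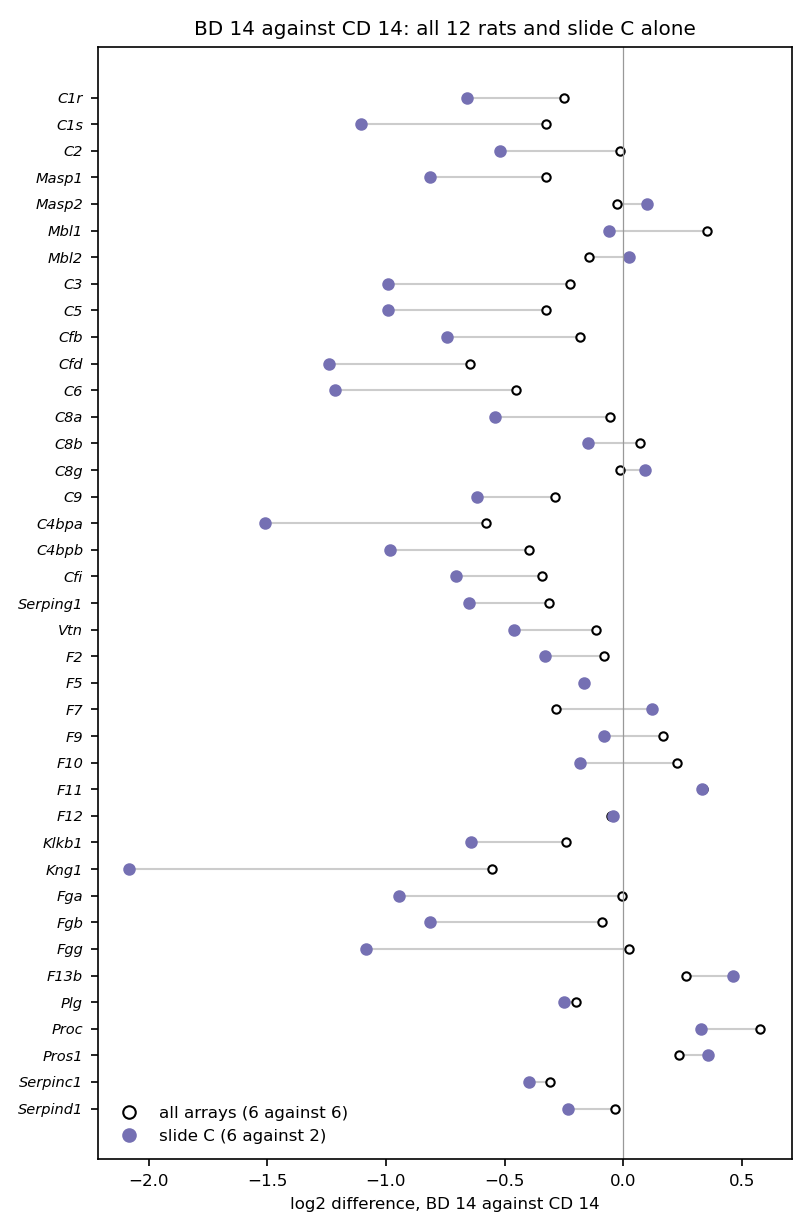
For each factor the open point is the log2 difference BD 14 against CD 14 over all 12 rats, and the filled point the same difference within slide C (6 BASE-diet rats against 2 control rats). Filled points lie below 0 in 31 of 39 factors, from -2.08 in Kng1 to 0.46 in F13b.

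In the fit without slide as a term, the remaining genes of both cascades leaned the same way with time on the control diet. Of 35 other complement genes listed, 25 were measured and 20 were higher in CD 14 than in CD 3 (53.4% of all probes). Unadjusted, 10 passed, all higher (6.85% of all probes), and the median was 0.82. C1qa, C1qb and C1qc, the chains of the recognition protein C1q, which macrophages make, differed by 1.28 ± 0.38, 0.96 ± 0.38 and 1.25 ± 0.34, and Cfp, properdin, by 1.24 ± 0.33. Of 37 other coagulation and fibrinolysis genes, 27 were measured and 23 were higher (53.4% of all probes). Unadjusted, 3 passed, namely Serpine2 and the kininogens Kng1l1 and Kng2, a share close to the 10.1% of all probes. None of these passed the adjusted threshold (limma).

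Macrophage markers had higher ratios in the same comparison, again in the fit without slide as a term. Of 7 Kupffer cell and macrophage markers, 6 were measured, all 6 were higher in CD 14 than in CD 3 and 4 passed unadjusted (Vsig4, which is also a complement receptor and stood on both lists, Clec4f, Cd68 and Cd163), where 53.4% of all probes were higher and 6.85% higher and past that level. None passed the adjusted threshold (limma). Their mean ratio ran from -2.88 to -0.64 in the CD 3 rats, -2.14 to -0.42 in BD 3, -1.27 to -0.12 in CD 14 and -1.72 to -0.062 in BD 14. Of the 9 hepatocyte markers 8 were higher as well, with a median difference of 0.29 and none past the unadjusted level. Their mean ran from -1.90 to 0.64 in the CD 3 rats and from -0.65 to 0.52 in the CD 14 rats. Of 5 endothelial markers 4 were higher in the same comparison and 1 passed unadjusted (Lyve1, 1.53 ± 0.43), and of 4 leukocyte markers 3 were higher and 1 passed (Ptprc, 1.34 ± 0.57), where 10.1% of all probes passed. None did among 5 stellate cell, 3 bile duct and 5 blood markers, of which 3, 2 and 5 were higher. The part of these cells in the results above was not tested.

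Of 20 liver regulators listed, transcription factors such as Hnf4a and Cebpa and the interleukin 6 pathway, 19 were measured. In CD 14 against CD 3, 10 were higher and 2 passed unadjusted, shares close to those of all probes (53.4% and 10.1%). These were Foxa3 at 1.21 ± 0.52 and Il6st, the shared receptor chain of interleukin 6, at 0.60 ± 0.26. In BD 14 against CD 14, 2 passed unadjusted (4.6% of all probes), Hnf4a, a central regulator of hepatocyte genes, at 0.77 ± 0.29 and Nr0b2 at 1.05 ± 0.43. None passed the adjusted threshold (limma).

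The spread of the factors was itself uneven over the groups. The median SD over the 39 was 0.62 in the CD 3 rats, against 0.69 over all probes, and 0.26 in BD 3, against 0.36. At 14 months it was 0.44 on the control diet and 0.30 on the BASE-diet, against 0.39 over all probes in either group. CD 3 had the largest SD of the 4 groups in 25 factors and CD 14 in 10. Residual SDs ran from 0.18 in F2 to 0.91 in Fga and 0.97 in Kng1, with a median of 0.49 against 0.53 over all probes.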

How the data were processed

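Liver RNA of 22 rats was hybridised by the authors to 2-colour Agilent arrays, with each rat in Cy5 and a common reference in Cy3 per the labels. The study's methods describe the same reference but also name Cy3 for control rats and Cy5 for BASE-diet rats on each array, which conflicts with the labels. The labels were followed, and every ratio here rests on them. The study's methods name Feature Extraction 10.7.3.1, the array file headers 10.10.1.1. The deposited scanner files hold processed intensity values per channel and the log10 ratio of both, background-subtracted and dye-normalized (Lowess) by the authors' software. The series table deposited by the authors holds log2 ratios and, of the 39 factors, lists only F9 and Kng1 and was used as an alternative.

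Log10 ratios were turned into log2. Control spots were dropped, as were those that either channel marks as non-uniform, and repeated spots were averaged by probe. A probe entered the fit if, in Cy5 and for each array of some group, a share of at least 0.5 of its spots was well above background (19434 of 30367, 64.0%). The number of arrays limits the precision. Each rat had an array of its own and the slides were unbalanced over the groups. The spread that the p-values rest on therefore mixes rat, array and slide. Group means were fitted for all 4 groups with limma 3.58.1 in R 4.3.3, with Benjamini-Hochberg adjustment over all probes kept and a threshold of 0.05. The fit was checked on simulated data. Probe positions follow rn4. Promoters come from RefSeq (GRCr8), matched through the accession of the probe for 33 factors and by symbol for the others.

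The factors, role groups and gene lists were chosen with earlier results of these data known. Genes are named by rule: the 3 widest differences of each comparison, those past the adjusted or unadjusted threshold, C3, C5, C9, F2, Serpinc1, Plg and the fibrinogen chains, and the 2 widest and 2 narrowest residual SDs. The other factors were named after their values were seen, so that each of the 39 is described. Alternatives were the background correction, normalization, channel, filter, probe choice, array weights, slide, replicate number as a block, groups in the fit and each array left out.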

Additional observations from a re-analysis of the deposited data

Results flagged for a closer look

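The 22 named factors and the median over all 39 were looked at in each of the 4 groups, 92 sets in all, for a rat that lies apart, and 4 were found, where chance alone flags about 1 in 20. The value given is the gap of that rat to its nearest neighbour as a share of the range of the group. For C8a in BD 3 it was 0.728, with rat 1 highest at 0.53 and the next at 0.14. For C4bpa in BD 14 it was 0.821, with rat 5 at 1.51 and the next at 0.61. For Fga in CD 3 it was 0.721, with rat 4 lowest at -3.05 and the next at -0.71, and this rat had the dimmest array of the series. For Fgb in BD 3 it was 0.745, with rat 3 lowest at -0.26 and the next at -0.13.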

How the results depend on the processing

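With all arrays in the fit, no factor passed the adjusted threshold in a comparison under any alternative. The largest dependence was on slide, and the cause was not tested. With slide as a fixed term the median difference over the 39 factors was -0.161 for BD 3 against CD 3, -0.521 for BD 14 against CD 14, -0.0581 for CD 14 against CD 3 and -0.362 for BD 14 against BD 3, and 0 factors passed unadjusted in CD 14 against CD 3, where 13 did without it. That fit reversed the sign of C9 at 3 months (-0.470 ± 0.49, SE). In CD 14 against CD 3 it did so for C9 (-0.246 ± 0.51), C6 (-0.303 ± 0.71), C5 (-0.131 ± 0.39), C8a (-0.0851 ± 0.38), C4bpa (-0.103 ± 0.34) and Cfi (-0.0581 ± 0.22). In BD 14 against BD 3, groups that shared no slide, it did so for Kng1 (-1.14 ± 0.82), Fgg (-0.747 ± 0.84) and Fga (-0.607 ± 0.86). Within slide B the 3-month median was -0.0913 and C9 -0.854, within slide C the 14-month median was -0.521, and within slide E, with 1 rat of each group, the median of CD 14 against CD 3 was -0.0406, Mbl2 0.034, C8a -0.102 and Cfi -0.167. In CD 14 against CD 3, 8 factors passed unadjusted with array weights (6.24% of all probes) and 8 with slide as a random block (6.68%). In Cy5 alone, F9 (0.138) and Masp2 (-0.026) reversed at 3 months, and F9 (-0.312) in the test between both diet differences. There 7 factors passed unadjusted in BD 3 against CD 3 (15.2% of all probes) and 9 in the test between both (9.28%). Without the dim array of CD 3 rat 4 and the 2 arrays of many non-uniform spots, a choice made after seeing the data, the 3-month median was -0.0663.

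With 1 array left out, the median ran from -0.0731 to 0.334 for BD 3 against CD 3, -0.224 to -0.0635 for BD 14 against CD 14, 0.0909 to 0.480 for CD 14 against CD 3, 0.0449 to 0.156 for BD 14 against BD 3 and -0.451 to -0.0910 for the test between both. In CD 14 against CD 3, 5 (8.01% of all probes, without CD 3 rat 3) to 15 (12.4%, without CD 3 rat 1) factors passed unadjusted and 0 to 1 adjusted (Kng1, without CD 3 rat 5). The unadjusted count ran from 1 (5.73%, without CD 3 rat 3) to 5 (10%, without CD 3 rat 5) in BD 3 against CD 3. It ran from 0 (4.3%, without BD 3 rat 1) to 4 (4.27%, without CD 14 rat 3) in BD 14 against CD 14. In the test between both it ran from 2 (4.15%, without BD 3 rat 1) to 7 (7.4%, without CD 3 rat 5).

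The rat numbers did not pair the samples, since 31 pairs of equal number correlated between -0.272 and 0.286. With the number as a replicate block, 15 factors passed unadjusted in CD 14 against CD 3 (9.29% of all probes), 4 in BD 3 against CD 3 (6.9%) and 2 in BD 14 against CD 14 (4.65%), and 0 passed adjusted.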

Other observations

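Acute-phase genes outside both cascades were looked at once the 4 rats with high fibrinogen had been seen. Of 10 chosen then, A2m and Hp had their 4 highest ratios in CD 14 rats 4 and 5 and BD 14 rats 2 and 5 as well. In A2m, alpha-2-macroglobulin, 3 of these were at 4.12, 2.97 and 2.23, but the fourth lay below the reference at -0.51, close to the next at -0.66. In Hp, haptoglobin, these were 2.16, 2.08, 1.86 and 1.60, and the next was 1.33. The rest of the 10 had other sets of 4 highest rats. In Orm1, Hpx and Cp, CD 14 rat 6 stood in place of BD 14 rat 2, and in Lcn2 in place of CD 14 rat 5. Apcs and Itih3 had CD 3 rat 2 among their 4, Saa4 had BD 3 rats 1 and 2, and Crp had BD 14 rat 4.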
